A study of Mus musculus with 18 samples.

Results

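The cholesterol synthesis enzymes described here are 8 genes, Acat2, Hmgcs1, Idi1, Fdps, Fdft1, Sqle, Lss and Cyp51. They were taken by gene symbol, any part of a joined symbol included, from the deposited table of 58570 gene loci, and each matched 1 locus. Their order here is that of the route, from the joining of acetyl units to the first steps on the sterol ring. All 8 had a value above 0 in every group and passed the filter on low values in every comparison.

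Animal cells build cholesterol from acetyl-CoA. Acetyl units are joined and reduced to mevalonate, mevalonate is turned into isoprenoid units, these are joined to squalene, and squalene is closed to lanosterol and trimmed to cholesterol. When sterol in the endoplasmic reticulum is low, the transcription factor SREBP2, encoded by Srebf2, is cut free from the membrane and raises transcription of most genes of the route. The nervous system makes its own cholesterol, since the plasma form does not cross the blood-brain barrier, and myelin, the lipid sheath that oligodendrocytes wrap around axons, is its largest store.

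Total RNA of whole spinal cords of SMNdelta7 mice, a model of spinal muscular atrophy (SMA), was depleted of ribosomal RNA and sequenced as stranded libraries. Homozygous pups (SMA) were compared with heterozygous pups (control) on postnatal days 2, 6 and 10 (P2, P6 and P10), with 3 labelled libraries per group and 18 in all. In this line the homozygotes lack the mouse gene Smn1, and human SMN transgenes keep them alive past birth, so the model is one of low, not absent, SMN protein; sex and litter are not given in the labels. The deposited values are 1 per group and gene, with the libraries already combined by the authors, so each level below is the authors' value with their model interval and has no replicate standard deviation. The unit is FPKM (fragments counted per kilobase of transcript and corrected for depth), which allows levels of different genes to be compared per length. Group totals were 6881671 to 7386338 estimated fragments.

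Smn1, the gene removed in the homozygotes, was at FPKM 2.70 in control and 0.0210 in SMA cords at P2, and at 4.46 and listed at 0 at P6. At P10 it was at FPKM 3.54 in control and 2.82 in the group labelled SMA. These values rest on 25.9 and 20.2 estimated fragments, with intervals of 0 to 8.12 and 0 to 6.08. The value of that SMA group went against its label, though its interval reached 0. Each direction below that uses SMA at P10 rests on a group only labelled so. The SMA group at P2 stood apart in another way: the summed FPKM of 12 oligodendrocyte and myelin genes was 3717 there, against 295 in control at P2 and 1954 and 2197 in control and SMA at P6. Directions below that use SMA at P2 rest on that group. Each of the 5 Hox genes used as markers of spinal cord identity was above 0 in all 6 groups. In bulk tissue, fewer cells of a type and less RNA per cell cannot be told apart.

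Taken as a group, the enzymes were most abundant in control cords at P10. Their summed FPKM was 385 in control and 478 in SMA cords at P2, 382 and 397 at P6, and 652 and 502 at P10. The control group at P10 was the highest of the 6, and the P6 groups and control at P2 lay close together at the bottom. They held 0.132% and 0.161% of all estimated fragments in control and SMA cords at P2, 0.134% and 0.126% at P6, and 0.213% and 0.161% at P10. In every group Hmgcs1 had the highest FPKM and Fdps the second, followed by Cyp51. The authors' intervals of neighbours in this order overlapped in all groups, with the exception of Hmgcs1 and Fdps in control at P10. The lower places changed: Lss was last in control at P2 and in both P6 groups, Fdft1 was last in SMA at P2, and Acat2 was last in both P10 groups.

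The mevalonate steps are represented by Acat2 and Hmgcs1. Acat2, the cytosolic thiolase that joins acetyl-CoA units to acetoacetyl-CoA, lies on the minus strand of chromosome 17 from 12942890 to 12960747 (ENSMUSG00000023832.14, GRCm38). Acat2 was at FPKM 27.3 in control and 27.7 in SMA cords at P2, 21.2 and 22.7 at P6, and 26.5 and 23.1 at P10. Its values were nearly flat, and all 6 intervals overlapped. A near-identical neighbour, Acat3, was at FPKM 10.8 to 15.2, and reads of the pair may have been split between them, so the level of Acat2 is uncertain. Hmgcs1 encodes the cytosolic HMG-CoA synthase, which joins a further acetyl unit to acetoacetyl-CoA; its gene lies on the plus strand of chromosome 13 from 119690379 to 119708260 (ENSMUSG00000093930.2). Hmgcs1 was at FPKM 131 in control and 184 in SMA cords at P2, 149 and 150.1 at P6, and 294 and 214 at P10. The authors' locus for it runs from 119690339 to 119756354, well past the end of the gene, and the level is that of this locus. Control at P10 was the high value and control at P2 the low one, yet their intervals, 73.8 to 188 at P2 and 151 to 437 at P10, still overlapped.

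The isoprenoid steps are represented by Idi1 and Fdps. Idi1 encodes the isomerase that makes dimethylallyl diphosphate, the unit from which longer isoprenoids grow; its gene spans 8885501 to 8892451 on the plus strand of chromosome 13 (ENSMUSG00000058258.14). Idi1 was at FPKM 21.9 in control and 33.9 in SMA cords at P2, 26.7 and 28.5 at P6, and 55.0 and 40.6 at P10. Its interval in control at P10, 33.6 to 76.4, lay wholly above that in control at P2, 12.8 to 30.9. The intervals of these 2 groups did not overlap for 272 of the 19956 genes tested. The paralogue Idi2 did not pass FPKM 0.151 in any group. Fdps encodes farnesyl diphosphate synthase, whose product feeds sterols, prenylated proteins, dolichol and ubiquinone, and lies on the minus strand of chromosome 3 from 89093588 to 89101959 (ENSMUSG00000059743.12). Fdps was at FPKM 81.7 in control and 84.5 in SMA cords at P2, 66.0 and 72.9 at P6, and 82.8 and 76.0 at P10. All 6 intervals overlapped; its locus in the files is joined with Rusc1 and Gm43738, so its level is that of the joined locus.

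Squalene is made and oxidised by the products of Fdft1 and Sqle. Fdft1, squalene synthase, is the step that commits farnesyl units to sterols; it lies on the minus strand of chromosome 14 from 63145150 to 63179578 (ENSMUSG00000021273.10). Fdft1 was at FPKM 26.3 in control and 27.2 in SMA cords at P2, 23.0 and 23.6 at P6, and 29.04 and 26.2 at P10. These are levels of the authors' locus, 63121089 to 63177945, which extends past the 3′ end of the gene and stops short of its 5′ end. The groups differed little, and the intervals, reaching 71.9% to 83.4% of the value on each side, were wide. Sqle, squalene epoxidase, is a control point of the later route that uses oxygen; it lies on the plus strand of chromosome 15 from 59315077 to 59331192 (ENSMUSG00000022351.14). Sqle was at FPKM 38.3 in control and 42.6 in SMA cords at P2, 34.6 and 33.3 at P6, and 48.9 and 38.8 at P10. Control at P10 was again the high value, with an interval of 29.8 to 68.1 that overlapped those of all other groups.

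The ring is closed and opened to demethylation by the products of Lss and Cyp51. Lss, lanosterol synthase, folds epoxidised squalene into lanosterol; its gene spans 76531588 to 76557138 on the plus strand of chromosome 10 (ENSMUSG00000033105.12). Lss was at FPKM 18.5 in control and 29.2 in SMA cords at P2, 19.7 and 21.1 at P6, and 42.5 and 30.1 at P10. Its locus in the authors' values runs on to 76562226, past the end of the gene. Control at P2 and at P6 were the low values, and all intervals overlapped. Cyp51, the P450 enzyme that removes the methyl group at the ring's alpha face from lanosterol, lies on the minus strand of chromosome 5 from 4081145 to 4104746 (ENSMUSG00000001467.5). Cyp51 was at FPKM 40.0 in control and 48.4 in SMA cords at P2, 42.1 and 44.8 at P6, and 72.6 and 53.7 at P10. Its intervals reached up to 102% of the value and overlapped in all groups; its locus shares a span with Akap9 on the other strand, which was at FPKM 20.0 to 31.1, and whether the authors counted by strand is not given in the sources used here.

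**Figure D1:**
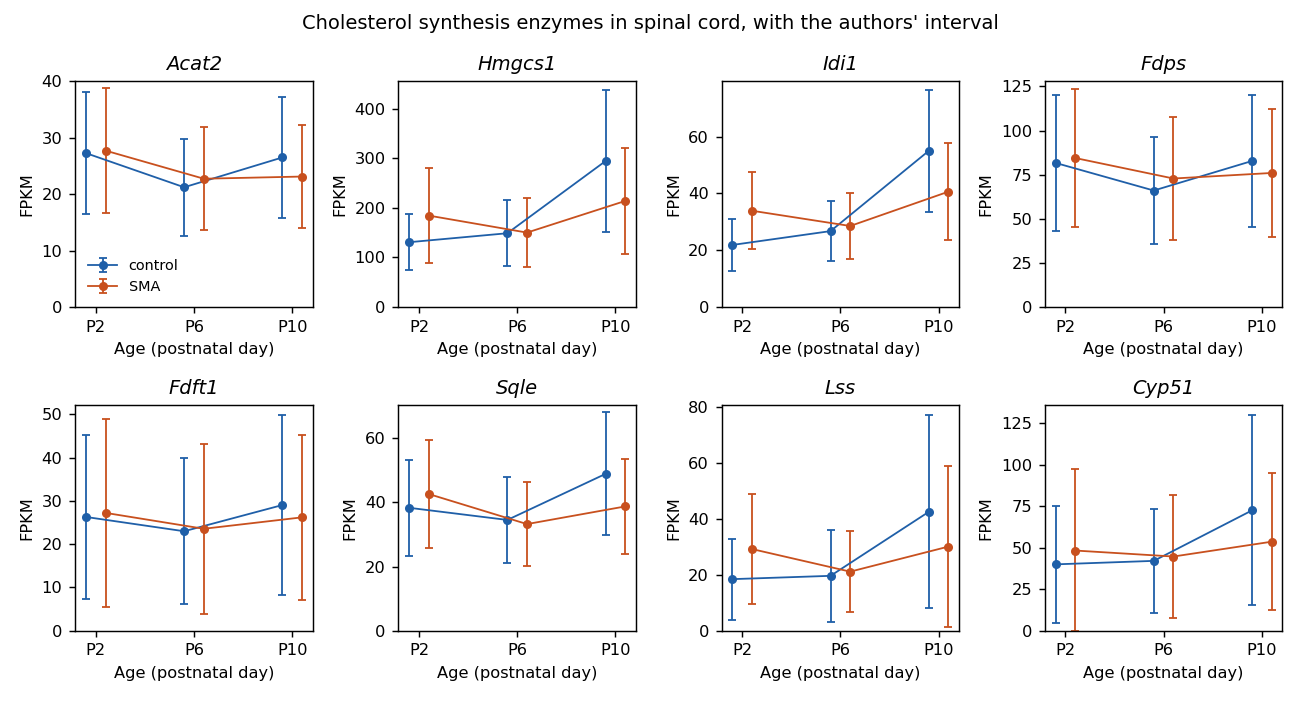
FPKM of each enzyme gene (y axis, linear, from 0) in control and SMA spinal cord at P2, P6 and P10 (x axis); points are the authors' group values and bars their model intervals. Control at P10 is the highest point for 6 of the 8 genes, for example 294 for Hmgcs1 and 55.0 for Idi1, while Acat2 and Fdps stay near flat.

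The width of the pattern differed between the enzymes. The ratio of the highest to the lowest of the 6 group values was 2.52 for Idi1, 2.30 for Lss, 2.25 for Hmgcs1 and 1.81 for Cyp51. It was 1.47 for Sqle, 1.31 for Acat2, 1.28 for Fdps and 1.26 for Fdft1. This order was seen after the values and was not tested. Across the 6 groups, Pearson's r of log2(FPKM + 1) was 0.993 for Hmgcs1 with Idi1 and 0.961 for Acat2 with Fdps, but 0.157 for Idi1 with Acat2. Over all 28 pairs of enzymes r was 0.157 to 0.993, with a median of 0.779; the 6 points share libraries and scaling among the genes, so these values are a description.

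The stretches just before the RefSeq transcription start were read for 5 of the 8 genes, those with an entry in the RefSeq promoter table (GRCm38.p6): Hmgcs1, Acat2, Idi1, Lss and Cyp51. They are shown because the sites through which SREBP2 and its partners act lie there in this gene class. Whether a motif goes with the level or range of a gene was not tested. Capitals mark TCACNCCAC, a form of the sterol regulatory element, and CCAAT, the box bound by NF-Y, on either strand (ATTGG is CCAAT on the other strand). The runs are 5′ to 3′ on the gene's own strand, at chr13:119690101-119690338 (plus) for Hmgcs1, chr17:12960748-12960975 (minus) for Acat2 and chr10:76531355-76531564 (plus) for Lss. The sites of Idi1 are at chr13:8885551-8885575 and chr13:8885582-8885605 (plus), and that of Cyp51 at chr5:4104712-4104736 (minus), each with up to 10 bases on either side. These sites lie before the RefSeq start but inside the GENCODE gene spans given above, so by that annotation they are not upstream of the gene.
Hmgcs1: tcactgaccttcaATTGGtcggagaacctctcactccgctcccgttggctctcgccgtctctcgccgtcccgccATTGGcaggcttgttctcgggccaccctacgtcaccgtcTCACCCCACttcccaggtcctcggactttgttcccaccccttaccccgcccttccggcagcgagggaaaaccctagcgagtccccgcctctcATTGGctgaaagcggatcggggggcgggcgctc
Acat2: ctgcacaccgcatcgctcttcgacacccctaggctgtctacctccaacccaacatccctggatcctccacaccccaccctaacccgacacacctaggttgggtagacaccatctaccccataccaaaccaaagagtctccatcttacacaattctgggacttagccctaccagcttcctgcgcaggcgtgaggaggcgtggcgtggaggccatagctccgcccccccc
Lss: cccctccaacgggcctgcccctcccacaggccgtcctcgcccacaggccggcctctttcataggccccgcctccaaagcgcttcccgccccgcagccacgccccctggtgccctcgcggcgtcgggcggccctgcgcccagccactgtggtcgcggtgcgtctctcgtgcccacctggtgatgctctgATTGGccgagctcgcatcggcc
Idi1, distal box: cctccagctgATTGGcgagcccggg
Idi1, proximal box: ccaaggtgccATTGGctggcgacc
Cyp51: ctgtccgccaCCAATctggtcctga

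Within the 250 bases before the RefSeq start, TCACNCCAC was found in 1 of the 5 genes, Hmgcs1, from 137 to 129 bases before the start, and in 1.05% of all 32851 promoters of the table. CCAAT was found in 4 of the 5, with 3 matches in Hmgcs1, 2 in Idi1 and 1 each in Lss and Cyp51, against 33.8% of all promoters; Acat2 had no match. All 11 of the other route enzymes with an entry also held that box, and 0 of these 11 held TCACNCCAC. The GC box bound by Sp1, GGGCGG, was found in 5 of 5, against 32.7% of all promoters. Both strands were searched, and no sterol regulatory element overlapped an NF-Y box. A match is only a stretch of letters, and no match says only that these letters are not in the window searched.

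**Figure D2:**
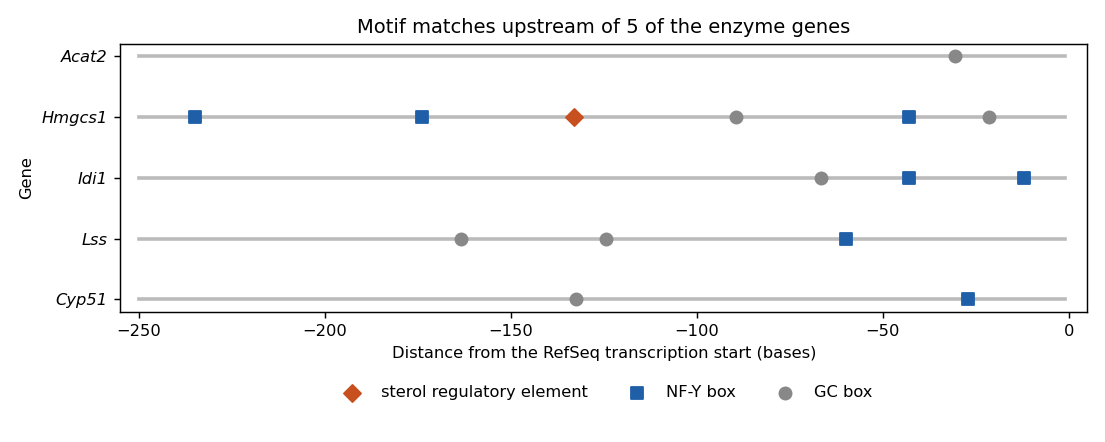
Motif matches before the transcription start of 5 enzyme genes (x axis, bases from the RefSeq start; 1 line per gene). The sterol regulatory element form is seen only in Hmgcs1 among these 5, 137 to 129 bases before the start, and CCAAT in all but Acat2.

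The change with age in control cords addressed maturation of the cord. From P2 to P10, 7 of the 8 enzymes had higher values, with a median log2 ratio of 0.60 against 0.02 over all 19956 genes tested, of which 51.8% were higher. The difference was 1.33 ± 0.42 (log2 ratio ± standard error from the interval) for Idi1, or 2.52-fold. It was 1.17 ± 0.48 for Hmgcs1, or 2.25-fold. Lss, at 1.20 ± 0.83, and Cyp51, at 0.86 ± 0.87, were of like size with wider errors. Sqle differed by 0.35 ± 0.41 and Fdft1 by 0.14 ± 0.75, and Fdps, at 0.02 ± 0.48, and Acat2, at -0.04 ± 0.42, were close to 0. By the two-sided z test with Benjamini-Hochberg adjustment over all genes tested, 0 of the 8 enzymes were called at an adjusted p under 0.05, where 0.546% of all genes were called higher and 0.0852% lower. The unadjusted p was under 0.05 for 2 of them, 0.00147 for Idi1 (adjusted 0.159) and 0.0148 for Hmgcs1 (adjusted 0.739). Over all 19956 genes tested, 701 had an unadjusted p under 0.05. Had the interval been that of a single library, both would have been called by the z test, with adjusted p of 3.92e-06 and 0.00122. Under that reading 920 of the 19956 genes were called.

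In control values the difference lay mostly between P6 and P10. From P6 to P10 in control cords all 8 enzymes had higher values, where 52.8% of all genes tested did, with a median log2 ratio of 0.64. Lss differed by 1.11 ± 0.86, Idi1 by 1.04 ± 0.41 and Hmgcs1 by 0.98 ± 0.49, followed by Cyp51 at 0.78 ± 0.80 and Sqle at 0.50 ± 0.41. Acat2, Fdps and Fdft1 were at 0.32 ± 0.42, 0.33 ± 0.48 and 0.34 ± 0.75. None was called (background 0.0551% higher and 0.0200% lower), and 2, Idi1 and Hmgcs1, had an unadjusted p under 0.05, at 0.0105 and 0.0437. Those 2 would have been called had the interval been that of a single library. Over all 19974 genes tested, 223 had an unadjusted p under 0.05, and 207 were called under the single-library reading. From P2 to P6 in control, 4 enzymes were higher and 4 lower, where 49.7% of all genes were higher, with a median of -0.04, from -0.36 ± 0.42 for Acat2 to 0.29 ± 0.42 for Idi1, and none was called (background 0.102% higher and 0.0102% lower).

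Values in SMA cords were flatter with age. Both ends of this span are groups that stood apart above, SMA at P2 by its myelin genes and SMA at P10 by Smn1. From P2 to P6 all 8 enzymes had lower values in SMA, where 43.6% of all genes tested did, with a median log2 ratio of -0.27 and a range of -0.47 ± 0.71 for Lss to -0.11 ± 0.96 for Cyp51. From P6 to the group labelled SMA at P10 all 8 were higher, where 52.2% of all genes were, with a median of 0.24; Hmgcs1 and Idi1 each differed by 0.51, with standard errors of 0.50 and 0.43. From P2 to P10, 4 were higher and 4 lower, where 56.7% of all genes were higher, with a median of -0.01. No enzyme was called in these comparisons, where 0.0260%, 0.0149% and 0.0351% of all genes were called higher and 0.00519%, 0.0249% and 0.0251% lower, and none had an unadjusted p under 0.05. Comparisons within a genotype share a group (P6 stands in 2 of them, for instance), so they are not independent of each other.

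**Figure D3:**
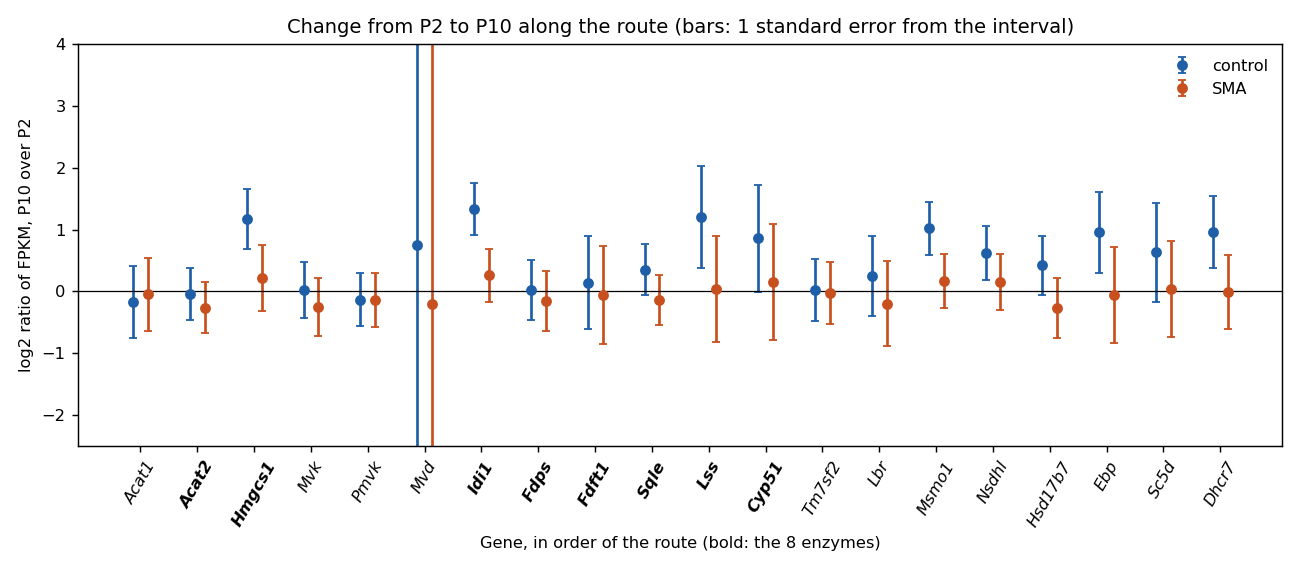
log2 ratio of FPKM, P10 over P2 (y axis), in control and SMA cords for the enzymes of the route named in the text, in order (x axis, the 8 enzymes in bold); bars are 1 standard error from the authors' interval, and those of Mvd run past the axis. In control, Idi1 (1.33), Lss (1.20) and Hmgcs1 (1.17) stand with Msmo1 (1.02) above most others, while the SMA points lie between -0.27 and 0.26.

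The effect of genotype was read at each age. At P2 all 8 enzymes had higher values in SMA than in control cords, where 49% of all 19114 genes tested and 54.2% of the protein-coding ones did. Their median log2 ratio was 0.21, against -0.01 over all genes. Lss was higher by 0.66 ± 0.76, Idi1 by 0.63 ± 0.42, Hmgcs1 by 0.50 ± 0.50 and Cyp51 by 0.27 ± 0.99. Sqle was higher by 0.15 ± 0.41, and Fdft1, Fdps and Acat2 by 0.05 or less. The ratios of Lss and Idi1 exceeded those of 93.9% and 93.4% of all genes tested. None of the 8 was called (background 0.0994% higher and 0.0262% lower), none had an unadjusted p under 0.05, and their adjusted p was 1.0. With the deposited estimated counts in place of FPKM, Fdps was at -0.01 and the other 7 were higher. The SMA group at P2 is the one whose myelin sum was above that of both P6 groups, as given above.

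At P6 the genotypes were close. The values were higher in SMA for 7 of 8 enzymes, where 60.1% of all genes and 72.1% of protein-coding genes were, with a median log2 ratio of 0.09 against 0.07 over all genes. The largest difference was 0.14 ± 0.49, for Fdps, and Sqle was at -0.05 ± 0.41. The count higher was 3 of 8 from the estimated counts and 5 of 8 after centring on the median of all genes, so no direction can be given at this age. None was called (background 0.0204% higher and 0.0255% lower), and the 95% intervals of the log2 ratio allowed -0.73 to 0.91 for Idi1 and -0.92 to 0.94 for Hmgcs1.

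At P10 all 8 enzymes had lower values in the group labelled SMA, where 44.4% of all genes and 50.8% of protein-coding genes did. The median log2 ratio was -0.38, against 0.04 over all genes. Lss was at -0.50 ± 0.92, Hmgcs1 at -0.46 ± 0.51, Idi1 at -0.44 ± 0.42 and Cyp51 at -0.43 ± 0.81. Sqle was at -0.34 ± 0.40, Acat2 at -0.20 ± 0.41, Fdft1 at -0.15 ± 0.75 and Fdps at -0.12 ± 0.48. The ratio of Lss lay below all but 7.70% of the genes tested, and that of Hmgcs1 below all but 8.92%. None was called (background 0.0248% higher and 0.0149% lower) and none had an unadjusted p under 0.05. The direction of all 8 was kept with the estimated counts and after centring, and Smn1 in this SMA group was near the control level, as given above.

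**Figure D4:**
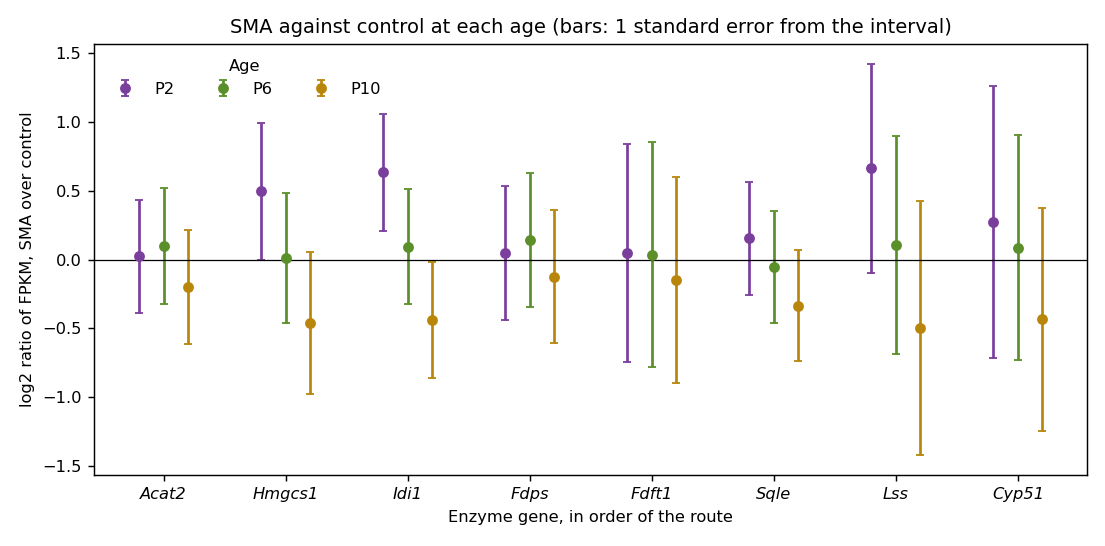
log2 ratio of FPKM, SMA over control (y axis), for each enzyme in order of the route (x axis) at P2, P6 and P10; bars are 1 standard error from the authors' interval. All points at P2 lie above 0, all at P10 below 0, and those at P6 between -0.05 and 0.14.

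The difference between these ages was tested itself, as the SMA to control log2 ratio at P10 less that at P2. All 8 enzymes were below 0, where 45.7% of the 20916 genes tested were, with a median of -0.60 against 0.05 over all genes. The values were -1.16 ± 1.20 for Lss, -1.07 ± 0.60 for Idi1, -0.96 ± 0.72 for Hmgcs1 and -0.71 ± 1.28 for Cyp51. Sqle was at -0.49 ± 0.57, Acat2 at -0.22 ± 0.58, Fdft1 at -0.20 ± 1.09 and Fdps at -0.17 ± 0.69. None was called (background 0.00956% higher and 0.0478% lower); the smallest unadjusted p was 0.0734, for Idi1. This value uses the same groups as the comparisons above and adds no independent measurement. It rests on both SMA at P2 and the group labelled SMA at P10, which stood apart as given above.

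A model over all 6 group values, fitted with limma on log2(FPKM + 1), called none of the 8 for genotype across ages, where 0% of 21960 genes were called higher and 0.00455% lower. The genotype differences ran from -0.08 ± 0.12 for Sqle to 0.09 ± 0.20 for Idi1, with an adjusted p of 0.999. Without the P2 groups they were -0.22 for Hmgcs1, -0.17 for Idi1 and -0.19 for Lss, and without the P10 groups the difference was 0.18 for Cyp51, so the sign of this average depended on the ages entered. For age, P10 against P2 over both genotypes, the difference was 0.77 ± 0.24 for Idi1 (adjusted p = 0.292), 0.69 ± 0.23 for Hmgcs1 (0.296), 0.60 ± 0.26 for Lss (0.347) and 0.49 ± 0.18 for Cyp51 (0.311). None was called, where 0.00911% of genes were called higher and 0.00455% lower. Acat2 and Fdps were at -0.15 ± 0.12 and -0.07 ± 0.11.

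As a list, the other 14 enzymes of the route had medians of the same sign as the 8 in the comparisons given here. Not every gene followed: Acat1 and Pmvk were lower in control at P10 than at P2. Their median log2 ratio of SMA to control was 0.38 at P2 (10 of 14 higher), 0.09 at P6 (8 of 14) and -0.35 at P10 (2 of 14), and 0.61 for P10 against P2 in control (12 of 14). The share of all genes tested that was higher in SMA was 49% for P2 and 60.1% for P6, so the P6 count gives no direction. For P10, 12 of the 14 were lower in the group labelled SMA, where 44.4% of all genes were. With age in control, from P2 to P10, 51.8% of all genes were higher. None of the other route enzymes named here was called in any comparison. Msmo1, a sterol methyl oxidase, was at FPKM 34.6 in control and 48.1 in SMA cords at P2, 39.8 and 45.4 at P6, and 70.1 and 54.0 at P10. Dhcr7, which reduces the precursor that the skin also turns into vitamin D, had 11.6, 17.2, 14.3, 15.4, 22.6 and 17.0 in the same order of groups. Control at P10 was the highest value of both.

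The P10 to P2 log2 ratios in control and SMA cords were 0.74 and -0.21 for Mvd, the decarboxylase before Idi1, whose interval gives a standard error of 7.12 and no usable test. They were 0.95 and -0.06 for Ebp, the sterol isomerase (its locus is joined with Porcn), 0.63 and 0.04 for the desaturase Sc5d, 0.62 and 0.16 for the sterol dehydrogenase Nsdhl, and 0.42 and -0.27 for the ketoreductase Hsd17b7. Lbr, a sterol reductase of the nuclear envelope in a joined locus, had 0.25 and -0.20. Close to flat in control were the kinase genes Mvk (0.02 and -0.25) and Pmvk (-0.13 and -0.14), the mitochondrial thiolase Acat1 (-0.17 and -0.04) and the reductase Tm7sf2, in a locus joined with Vps51 and others (0.02 and -0.03).

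Genes that sense and control sterol level had smaller differences. Of 13 measured, 12 were tested, and their median log2 ratio of P10 to P2 in control was 0.23, with 8 higher and none called. Srebf2, the main activator, was at FPKM 18.4 in control and 19.6 in SMA cords at P2, 17.9 and 18.3 at P6, and 23.6 and 18.5 at P10. Insig1, which holds the SREBP escort protein in the membrane and is itself a target of SREBP, was at 31.8, 42.5, 28.99, 31.7, 41.3 and 32.0 in the same order. Mbtps1, the protease that makes the opening cut in SREBP, was at 15.95, 22.9, 16.8, 17.5, 19.7 and 19.0. The SMA to control medians of this list were 0.17 at P2, 0.07 at P6 and -0.13 at P10, with 7, 10 and 4 of 12 higher.

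Sterol uptake, transport and storage genes, 16 measured and 15 tested, had a median of 0.57 for P10 against P2 in control (12 higher, none called), and SMA to control medians of 0.25, 0.13 and -0.21 at the 3 ages. Apoe, the apolipoprotein by which astrocytes supply sterol, was at FPKM 431 in control and 651 in SMA cords at P2, 637 and 764 at P6, and 770.2 and 612 at P10. Its receptor Lrp1 was at 38.4 to 50.8 and the sterol exporter Abca1 at 12.9 to 16.4 over the 6 groups. Branch enzymes that use isoprenoids for other products had a P10 to P2 median of 0.20 in control, with 8 of 12 higher and none called. Fnta, a farnesyltransferase subunit, was at 31.7 to 47.8, Fntb, its partner in a locus joined with Churc1, at 15.5 to 28.2, and Nus1, of dolichol synthesis, at 11.7 to 14.7.

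Fatty acid synthesis genes had the highest median of the lipid lists for P10 against P2 in control. All 12 tested were higher at P10 than at P2 in control, with a median log2 ratio of 0.89, and 1 was called. That gene was Scd1, a stearoyl-CoA desaturase, which rose by 2.53 ± 0.43 (z test, adjusted p = 3.86e-06) and was at FPKM 12.8 in control and 35.1 in SMA cords at P2, 33.5 and 29.4 at P6, and 73.9 and 40.9 at P10. SMA to control medians of the list were 0.43 at P2, 0.04 at P6 and -0.32 at P10, with 11 of 12, 9 of 13 and 0 of 12 higher.

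**Figure D5:**
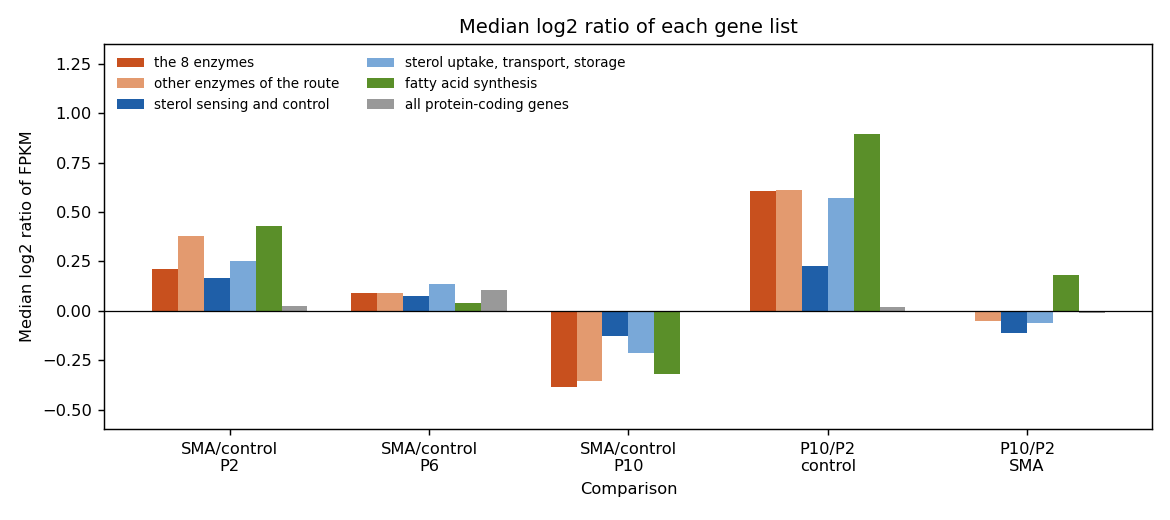
Median log2 ratio of FPKM (y axis) over the tested genes of each lipid list, and over all protein-coding genes, in 5 comparisons (x axis); bars start at 0 and carry no error. The 8 enzymes are at 0.21 and -0.38 for SMA against control at P2 and P10, and at 0.60 and -0.01 for P10 against P2 in control and SMA.

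Markers of several cell types differed between the same groups as the enzymes. Oligodendrocyte and myelin genes summed to FPKM 295 in control and 3717 in SMA cords at P2, 1954 and 2197 at P6, and 8142 and 4552 at P10, highest in control at P10, as for the enzymes, but lowest by far in control at P2. All 12 of these genes were higher in SMA at P2, where 49% of all genes were, and 5 were called, against 0.0994% of all genes. All 12 were lower in the group labelled SMA at P10, where 44.4% of all genes were, with none called. From P2 to P10 in control 11 of 12 were called higher, against 0.546% of all genes. Mbp, myelin basic protein, was at FPKM 149.6 in control and 1840.5 in SMA cords at P2, 1012 and 1130.1 at P6, and 4281 and 2294 at P10. Mag, an adhesion protein of the inner myelin wrap, was higher in SMA at P2 by 3.71 ± 0.92 (z test, adjusted p = 0.0483), a call that 4 of its alternatives did not keep. Of the called genes with the largest ratios, Opalin, Mobp and Ermn rose in control from P2 to P10 by 6.23 ± 1.4828, 5.71 ± 0.71 and 5.60 ± 0.71. Opalin and Ermn were at only FPKM 0.0578 and 0.438 in control at P2 and passed the filter through P10, at 4.34 and 21.2. The size of their ratios is therefore uncertain, and their place among the 11 called rests on the group where they are high. The range of the myelin genes was far wider than that of the enzymes, whose sum spanned 382 to 652.

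Oligodendrocyte precursor genes, led by Enpp6, Bcas1 and Gpr17, summed to FPKM 79.8 and 166 at P2, 151 and 152 at P6, and 291 and 190.4 at P10, and these 3 were called higher at P10 than at P2 in control. Astrocyte genes summed to 467 and 814, 703 and 794, and 1086 and 853, with none called; Aldoc, Gfap and Aqp4 were the most abundant. Neuron genes ranged only from 719.5 to 821, with Nefl, Tubb3 and Stmn2 most abundant and none called. Schwann cell genes summed to 59.3 and 73.7 at P2, 156 and 205 at P6, and 265 and 129 at P10, with Pmp22 called higher at P10 than at P2 in control, and adipocyte genes to between 2.37 and 24.1, with Ucp1 called lower in the group labelled SMA at P10 than in SMA at P2 and P6. Adipoq and Cfd, both adipocyte markers, were at 0 in the group labelled SMA at P10, and no other marker was at 0 in any group. The part of any of these cell types in the values of the enzymes was not tested.

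Among 8088 other protein-coding loci at FPKM 5 or more in at least 1 group, the 5 whose profile over the 6 groups lay closest to the mean profile of the enzymes were Slc45a4, Eif1, Adam19, Micall1 and Ick. Their root mean square distance was 0.0389, 0.0445, 0.0494, 0.0548 and 0.0556 on the log2(FPKM + 1) scale. Slc45a4 was at FPKM 9.12 in control and 11.1 in SMA cords at P2, 8.37 and 9.40 at P6, and 14.0 and 10.6 at P10. Micall1 was at 5.04 and 6.81, 4.71 and 5.53, and 9.02 and 6.78. Both had their highest value in control at P10, as most of the enzymes did. Cyp51 itself lay at 0.0838 and Sqle at 0.0990 from that mean, and Idi1, at 0.215, and Acat2, at 0.208, lay furthest, on the wide and the flat side.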

How the data were processed

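The values were made by the authors from 18 labelled libraries in 6 groups of 3. Per the submitters' processing notes they used FastQC, Bowtie2 2.2.4, TopHat2 2.1.1, Picard, Cufflinks 2.2.1 and Cuffdiff on GRCm38; the annotation release, strand setting and normalization are not given in the sources used here. The authors' tables, as deposited, give FPKM with a lower and an upper bound for each group, and expected counts (estimated fragments) with a model variance, another deposited measure in squared fragments. Libraries are already combined, so the spread between animals was not analysed here; p-values of the z test rest on the authors' interval alone, and those of limma on the scatter of the 6 group values.

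Comparisons used a two-sided z test on log2 FPKM ratios. The standard error came from the upper arm of the authors' interval, divided by 1.96. A gene entered with FPKM of 1 or above in either group, above 0 in each, and an OK status; p-values were adjusted by Benjamini-Hochberg over all of them and called under 0.05. Over all genes the z values had a robust spread of 0.237 to 0.470, below that of a standard normal, and few genes are called. limma 3.58.1 in R 4.3.3 was fitted to log2(FPKM + 1) with genotype and age, a trend and 2 residual degrees of freedom, treating ages or genotypes as replicates. Both tests were run on simulated data, with noise as wide as the z test assumes and noise of a fixed size for limma. That setting differs from these values, so the simulation checked only that planted changes are found. Gene coordinates came from GENCODE M21 and promoters from RefSeq, both on GRCm38, and motifs were searched with Python 3.11.15 and pandas 2.3.3. An E-box, CACGTG, was found upstream of 0 of 5 enzymes and in 6.02% of promoters. The classical form of the sterol element was found in 0 of 5 and in 0.0731%.

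The genes and lists were chosen with earlier results of these data known. Named were the 8 enzymes, every other enzyme of the route, Smn1, Mbp and Mag, the 5 most alike genes, and from each other list up to 3 called genes of largest ratio or else its 3 most abundant; some genes of these lists are not reported here. Of 15 sterol sensing genes, 2 were not matched, and 7 oligodendrocyte precursor symbols fell on 6 loci. Alternatives were other errors, filters, scalings, a pseudocount and the estimated counts; the 10535 loci without a symbol stayed in the adjustment.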

Additional observations from a re-analysis of the deposited data

How the results depend on the processing

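Of 101 settings of the counts of called enzymes, 98 stayed at the count given. The exceptions concerned control cords: with the interval read as that of 1 library (standard error divided by the square root of 3), 2 enzymes, Hmgcs1 and Idi1, were called for P10 against P6 and the same 2 for P10 against P2, and 1, Idi1, had intervals that did not overlap between P10 and P2. The counts over all genes were 207 of 19974, 920 of 19956 and 272 of 19956. Of 734 settings of single genes, 703 kept direction and call, 20 reversed, 5 became called and 6 ceased to be called. From the estimated counts the log2 ratios turned to -0.0090 for Fdps at P2, to -0.043 for Hmgcs1, -0.016 for Acat2, -0.041 for Fdft1 and -0.034 for Cyp51 at P6, to -0.059 for Fdps in P10 against P2 in control, and to -0.090 for Lss in SMA. Centring turned Hmgcs1 (-0.053) and Fdft1 (-0.030) at P6, Fdps (-0.00040) in P10 against P2 in control, Lss (-0.011) in SMA and, in the limma age fit, Fdft1 (-0.038). The limma genotype difference turned without P2 for Hmgcs1 (-0.22), Idi1 (-0.17) and Lss (-0.19), without P6 for Fdps (-0.037), and without P10 for Acat2 (0.059), Fdft1 (0.041), Sqle (0.048) and Cyp51 (0.18). The cause of these was not tested. Leaving out Fdps, chosen after seeing that its locus is joined, changed no call.

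Calls over all genes ranged widely: 126 for P10 against P2 in control, with 108 to 920 over the alternatives, and 24 for SMA against control at P2, with 6 to 123. The ranges were 0 to 26 around 9 at P6, 0 to 22 around 8 at P10, 9 to 98 around 22 and 8 to 207 around 15 for the steps to P6 and P10 in control, and 9 to 163 around 12 for the difference between ages. Intervals of the 8 enzymes reached 38.4% to 102% of their value, on 434 to 7233 estimated fragments, which limits the differences that could be detected. No paired analysis was possible because the files hold 1 value per group, and leaving out single libraries was not run for the same reason.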
